A study of Mus musculus with 24 samples.

Results

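Phase 2 conjugation enzymes attach a water-soluble group to drugs, steroids, bile acids, bilirubin and reactive electrophiles, so that the products can be exported into bile, urine or the gut lumen. Glucuronosyltransferases (Ugt genes) sit in the endoplasmic reticulum and use UDP-glucuronate, sulfotransferases (Sult genes) are cytosolic and use the sulfate donor PAPS, and glutathione transferases (Gst genes) couple glutathione to electrophiles. Liver and small intestinal epithelium are the main sites of all 3 reactions. The members described here are the gene entries whose symbols begin with Ugt1 to Ugt3 of subfamilies a and b, Sult1 to Sult6, or Gst of the alpha, kappa, mu, omega, pi and theta classes, with pseudogenes and antisense genes left out. The names gave 65 entries of 40481 genes in each tissue's table: 20 Ugt, 21 Sult and 24 Gst entries, or 62 symbols, because Gstp1, Gstp2 and Gstp3 each have a second identifier, and those second identifiers held no reads. The rule uses names and no measured value; the set itself was taken up with earlier results of these data known.

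Ileal and hepatic RNA was taken from C57BL/6 mice. Every mouse had a 75% small bowel resection and carried the floxed Abca1 allele (Abca1 fl/fl). In 1 genotype, called floxed here, no Cre was present. In the other, Abca1 fl/fl X Villin-Cre, Cre was driven by the promoter of villin, a gene of the intestinal epithelium. That design aims at Abca1 in this epithelium and not in hepatocytes, and recombination was not examined in either tissue. Mice of each genotype received vehicle (0.5% carboxymethyl cellulose) or GW3965, a synthetic agonist of the oxysterol receptors LXRα and LXRβ, orally at 1 mg/kg/day, 2 times a week for the last 5 of 10 weeks after surgery. There were 3 libraries for each of the 8 combinations of tissue, genotype and treatment, 24 in all; the labels give no age or sex, and no group without resection was analysed here.

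The deposited values were log2 CPM (reads of a gene per M, or mega, assigned reads), from which whole read numbers and CPM were recovered; libraries held 16.96 to 24.2 M assigned reads in ileum and 26.43 to 32.28 M in liver. Differences were tested with limma on log2(CPM + 0.5) over all genes with at least 0.5 CPM in 3 libraries of a tissue, and "called" means a Benjamini-Hochberg adjusted p under 0.05 over all of those genes. Fold changes are on that scale, which understates changes of low genes. Pairs of libraries of a group differed by 2.58 to 4.531 times the variance of read sampling, outside the 2 libraries named next, and libraries of different groups by 8.459 to 81.85 times. The labels do not say that a group's libraries came from separate mice, so p-values measure the spread between these libraries, which may be technical. Replicate 3 of the floxed GW3965 ileum and replicate 1 of the floxed GW3965 liver stood apart from the rest of their groups, at up to 12.13 times. Libraries of a group under 4 times apart, or linked through a library that close to both, were averaged to 1 unit ("close libraries averaged"). By such a link replicates 2 and 3 of the floxed vehicle ileum, at 4.531 times, were joined. Then 5 units a tissue remained, 2 in floxed GW3965 and 1 in each other group. In every comparison the spread of that fit came only from the library that stood apart, set against the rest of its group. That fit holds no measure of the spread within the other groups. The members then called are given beside each count. Abca1 read 54.2 to 59.9 CPM in floxed vehicle ileum, 251 to 438 with GW3965, 25.7 to 30.6 in Villin-Cre vehicle ileum and 53.7 to 54.0 in Villin-Cre ileum with GW3965; reads of the whole gene were counted, so the deleted part was not examined by itself. In liver it read 327 to 342 CPM in floxed and 225.0 to 225.4 CPM in Villin-Cre vehicle mice. All 8 epithelial markers were detected in ileum and all 6 hepatocyte markers in liver.

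Many members lie in tandem clusters of related genes (GRCm38 coordinates). The 9 Ugt1a genes share 1 locus on chromosome 1 from 88055388 to 88220002, where each has its own first exon and all use the same later exons. By the GENCODE annotation of that build 50.3% (Ugt1a6a) to 82.7% (Ugt1a1) of their exonic bases are shared, so reads of the common exons cannot be given to 1 gene. How such reads were counted is not stated, and levels of Ugt1a genes per kb are uncertain for that reason. The 9 Ugt2 genes lie on chromosome 5 from 86889767 to 87482260, with Sult1b1, Sult1d1 and Sult1e1 next to them from 87513339 to 87591594. The 7 mu-class Gst genes lie on chromosome 3 from 107895821 to 108044894, and Gsta1, Gsta2 and Gsta4 on chromosome 9 from 78182774 to 78355788. Closely related neighbours (Gsta1 and Gsta2, Gstp1 and Gstp2, the Sult2a genes) can trade reads, so the split within such a pair is uncertain. In ileum 53 of the 65 entries had a read and 39 passed the filter (13 Ugt, 8 Sult, 18 Gst); in liver 61 had a read and 48 passed (19 Ugt, 10 Sult, 19 Gst). Counts below refer to tested members and not to all 65. A member that passed only through a group where it is high was bound to differ: this holds for Sult1c2 in ileum (over 0.5 CPM in floxed GW3965 libraries alone) and for Sult1e1 and Sult2a2 in liver (in Villin-Cre vehicle libraries alone), whose calls are marked below as set by the filter.

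Levels of different genes were compared per kb of exonic sequence, as means over the 12 libraries of a tissue. In ileum Ugt2b34 led its class with 41.98 CPM per kb and 79.48% of the summed CPM of that class, ahead of Ugt1a7c (5.346), Ugt1a1 (3.257), the enzyme that glucuronidates bilirubin, and Ugt2b5 (1.484). Among ileal sulfotransferases the highest levels per kb were those of Sult2b1 (39.62), which sulfates cholesterol and oxysterols, Sult1b1 (23.8), which acts on thyroid hormones, Sult1d1 (22.63), which acts on catecholamines, and Sult1a1 (2.638), the phenol sulfotransferase. The leading ileal glutathione transferases were Gsto1 (58.46), an omega-class enzyme that also reduces dehydroascorbate, Gstp1 (37.36), Gstm1 (22.91) and Gstp2 (15.99). Per kb of exonic bases that no other gene shares, Ugt1a1 stood at 18.82 and Ugt1a7c at 11.78, so the order of these 2 turns with the length used. In liver the order differed: Ugt2b5 (103.8), Ugt2b36 (79.34), Ugt2b34 (55.59) and Ugt3a2 (36.92) led the first class, Sult1a1 (131.2), Sult2a8 (16.35), a bile acid sulfotransferase, Sult1d1 (14.52) and Sult1b1 (2.396) the second, and Gstm1 (1515), Gstm3 (466.9), Gstp1 (286.9) and Gsta3 (133.3) the third. Per kb of unshared bases hepatic Ugt1a1 stood at 115.8, above Ugt2b5, and Ugt1a5 at 57.38, above Ugt2b34. These means cover groups with unlike levels: ileal Gstm3 was at 0.64 to 55.4 CPM per kb by group and second in its class to Gsto1 in Villin-Cre GW3965 ileum, and hepatic Sult2a8 was at 3.19 to 41.0. Gstm1 alone made up 47.38% of the summed glutathione transferase CPM of the liver. Libraries of the 2 tissues were not tested against each other.

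Summed over a class, ileal glucuronosyltransferases stood at 174 ± 12.5 CPM (SD, n = 3) in floxed vehicle mice, 223 ± 8.1 with GW3965, 138 ± 4.8 in Villin-Cre vehicle mice and 375 ± 19.2 in Villin-Cre mice with GW3965. Ileal sulfotransferases followed the same order of extremes, with 245 ± 16.4, 265 ± 5.6, 225 ± 3.5 and 410 ± 3.5 CPM, and ileal glutathione transferases stood at 306 ± 2.6, 277 ± 12.4, 227 ± 10.6 and 481 ± 13.8 CPM. In all 3 classes the Villin-Cre GW3965 libraries lay above every other ileal library. Liver sums of the first 2 classes were lower in Villin-Cre mice, with glucuronosyltransferases at 1306 ± 54.5 in floxed against 909 ± 2.8 CPM in Villin-Cre vehicle mice and sulfotransferases at 321 ± 11.8 against 239 ± 8.7. The glutathione transferase sum was higher, at 5768 ± 42 against 4385 ± 13.7 CPM. These sums are descriptions and were not tested.

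**Figure D1:**
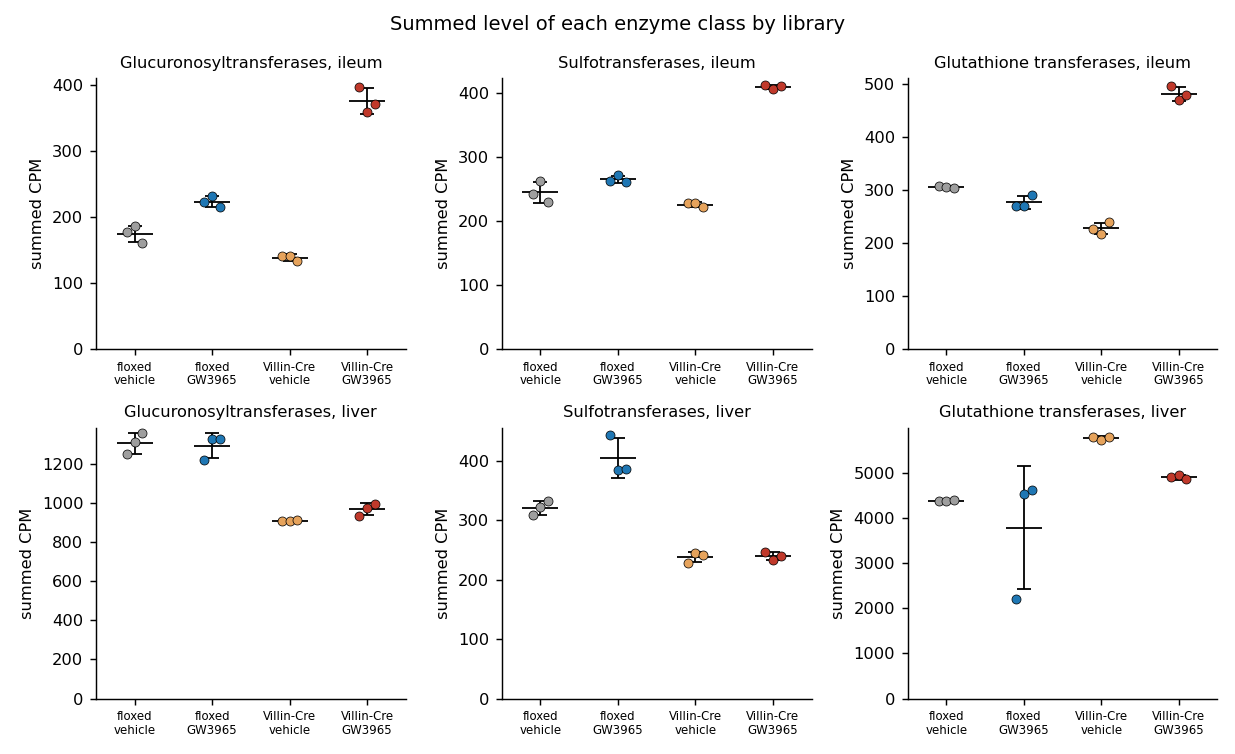
Summed CPM of the 3 enzyme classes (columns) in ileum (top) and liver (bottom); each point is 1 library, the long bar is the mean of 3 libraries and the whiskers are ±1 SD. In ileum the Villin-Cre GW3965 libraries are the highest in each class, and in the liver glutathione transferase panel 1 floxed GW3965 library (replicate 1) lies far below the other 2.

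The DNA before the start of the members that rose most with GW3965 in Villin-Cre ileum is shown here because those genes rose together across classes. Sult4a1 changed more than Sult1d1 there but fell (log2 fold changes of -1.67 and 1.58), and its window is not shown. RefSeq promoters (GRCm38.p6, 250 bases before to 50 after the start) were matched by symbol for 54 of the 62 symbols, as 64 promoters. Both strands were searched for TGACNNNGC, the core of the antioxidant response element bound by NRF2, for GCGTG, the core of the xenobiotic response element bound by the aryl hydrocarbon receptor, and for direct repeats of AGGTCA spaced by 3 or 4 bases with at most 1 mismatch, the kind of site bound by nuclear receptors with RXR. TGACNNNGC stood in 3 of 64 member promoters (4.69%) and in 12.4% of all 32851 promoters of the table, GCGTG in 13 (20.3%) and 32.4%, and the repeats in 0 of 64 against 0.234% (spaced by 3) and 0.25% (spaced by 4) of all. The first 3 windows below are those of the member with the largest rise in each class: chr1:88211709-88211958 (plus strand) for Ugt1a1, chr5:87569007-87569256 (minus strand) for Sult1d1 and chr3:107969175-107969424 (minus strand) for Gstm3. The fourth, chr1:21240335-21240584 (plus strand) for Gsta3, is that of a member that also rose there and has a TGACNNNGC match. Each is the 250 bases before the start, 5′ to 3′ on the gene's strand, and capitals mark a match.
Ugt1a1: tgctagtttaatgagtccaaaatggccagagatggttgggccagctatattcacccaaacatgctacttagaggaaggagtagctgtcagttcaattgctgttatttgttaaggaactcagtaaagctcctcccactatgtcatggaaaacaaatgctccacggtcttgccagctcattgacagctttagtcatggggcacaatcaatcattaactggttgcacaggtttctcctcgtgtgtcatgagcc
Sult1d1: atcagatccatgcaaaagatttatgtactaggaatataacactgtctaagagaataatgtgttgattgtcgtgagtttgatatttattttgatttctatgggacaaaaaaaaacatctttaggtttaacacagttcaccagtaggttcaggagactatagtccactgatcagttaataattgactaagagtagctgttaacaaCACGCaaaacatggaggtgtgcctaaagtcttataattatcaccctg
Gstm3: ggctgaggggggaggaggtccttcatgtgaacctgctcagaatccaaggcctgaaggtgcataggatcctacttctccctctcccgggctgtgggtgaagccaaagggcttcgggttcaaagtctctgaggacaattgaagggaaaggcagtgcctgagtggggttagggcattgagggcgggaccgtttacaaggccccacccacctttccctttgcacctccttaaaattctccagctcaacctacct
Gsta3: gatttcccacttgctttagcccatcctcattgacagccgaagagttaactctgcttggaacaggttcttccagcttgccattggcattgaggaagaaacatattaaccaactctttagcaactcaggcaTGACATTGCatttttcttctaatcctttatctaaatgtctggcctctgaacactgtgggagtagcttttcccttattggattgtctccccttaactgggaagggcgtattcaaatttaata
The Sult1d1 window holds GCGTG on the opposite strand, beginning 47 bases before the start, and the Gsta3 window holds TGACNNNGC beginning 121 bases before it. The Ugt1a1 and Gstm3 windows hold none of the searched letters, which says only that they are not in these windows. No binding was measured here.

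In the ileum of Villin-Cre mice GW3965 was followed by higher transcript levels of most tested members, led by the mu-class transferase Gstm3. Gstm3 read 1.13, 1.17 and 0.215 CPM with vehicle and 76.8, 66.3 and 74.6 CPM with GW3965, 86.6 times higher on means (log2 fold change 5.87 ± 0.31 SE, limma adjusted p = 1.1e-10). In floxed ileum it read 2.67, 1.65 and 1.58 CPM with vehicle and 2.29, 0.792 and 1.79 CPM with GW3965. Of 39 tested members 24 were higher and 3 lower, where 21.5% of all 18656 tested genes were called higher and 31.1% lower. The median log2 fold change was 0.85 over members and -0.11 over all genes. With close libraries averaged 7 members were still called, all of them higher (Gstm3, Gstk1, Gsta4, Gstm1, Ugt1a1, Ugt2b34 and Sult1d1), against 6.75% of all genes.

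Of 13 tested glucuronosyltransferases 9 rose and none fell. Ugt2b34, the most abundant, read 113, 114 and 108 CPM with vehicle and 331, 298 and 313 CPM with GW3965, so that the groups were far apart (1.48 ± 0.06 SE, limma adjusted p = 3.9e-12). Ugt1a1 rose from 3.49, 2.8 and 3.45 to 12, 12.2 and 12.6 CPM (1.77 ± 0.15, limma adjusted p = 4.1e-08). Lower-level members rose as well, Ugt2a3 from 0.465 ± 0.32 to 2.4 ± 0.29 CPM (SD, n = 3), Ugt1a2 from 0.527 ± 0.084 to 2.59 ± 1.1 and Ugt2b5 from 1.32 ± 0.54 to 4.75 ± 1.5, with log2 fold changes of 1.64, 1.54 and 1.54. Ugt1a7c, which acts on phenols, went from 12.9 to 26.3 CPM, Ugt1a6a rose by 1.03 on the log2 scale, and Ugt2b1 and Ugt2b36 were called with overlapping libraries. Ugt1a5, Ugt1a6b, Ugt2b35 and Ugt3a2 did not pass, at log2 fold changes of 0.25, 0.47, 0.27 and -0.42.

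Of 8 tested sulfotransferases 3 rose and 1 fell. Sult1d1 read 31.1, 31.9 and 28.5 CPM with vehicle and 95.3, 89.1 and 92.4 CPM with GW3965 (log2 fold change 1.58 ± 0.09 SE, limma adjusted p = 3.2e-10). Sult1b1 rose from 56, 55.3 and 48 to 100, 93.2 and 94.7 CPM (0.85 ± 0.09), and Sult2b1 from 134, 134 and 138 to 212, 219 and 217 CPM (0.68 ± 0.05). The groups did not overlap for any of them. Sult4a1, a neuronal family member of unknown substrate, fell from 2.47, 2.4 and 2.96 to 0.331, 0.413 and 0.711 CPM (-1.67 ± 0.21). Sult1a1, Sult1c2, Sult5a1 and Sult6b1 did not pass.

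Of 18 tested glutathione transferases 12 rose and 2 fell. After Gstm3 the largest change was that of Gstk1, the kappa-class enzyme of mitochondria and peroxisomes, which read 4.83, 5.78 and 5.71 CPM with vehicle and 29.5, 30.5 and 32.5 CPM with GW3965 (log2 fold change 2.40 ± 0.13 SE, limma adjusted p = 1.5e-10). Gsta4, which conjugates the lipid peroxidation product hydroxynonenal, rose from 2.06, 2.16 and 2.05 to 9.3, 12.7 and 11.8 CPM (2.18 ± 0.20). Gstm6 rose from 0.88 ± 0.22 to 4.34 ± 0.3 CPM (SD, n = 3) and Gsta3 from 1.35 ± 0.75 to 4.49 ± 1.2 CPM, with log2 fold changes of 1.82 and 1.48. The abundant Gsto1, Gstp1, Gstm1 and Gstp2 rose by 0.66, 0.86, 1.14 and 0.90 on the log2 scale, Gstm1 from 24.1 to 53.8 CPM on means, and Gstm7, Gsta1 and Gstt3 by 0.98, 0.90 and 0.50. Gstm2 (5.32 to 3.55 CPM) and Gstp3 (1.57 to 0.88 CPM) fell, so neighbours within the mu cluster and within the pi cluster went opposite ways. Gstm4, Gstm5, Gstt1 and Gstt2 did not pass, at log2 fold changes of -0.20, 0.00, 0.18 and 0.33.

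**Figure D2:**
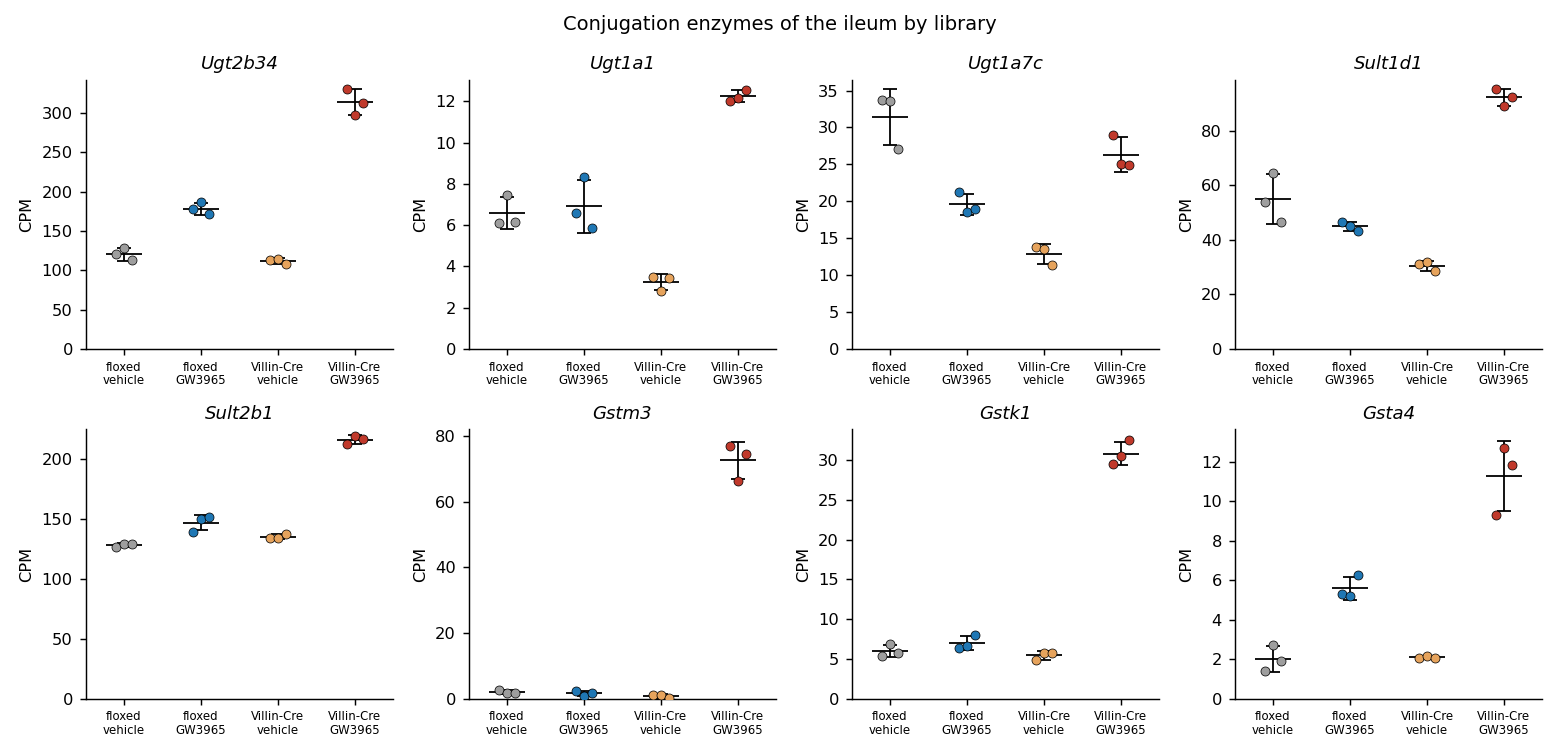
CPM of 8 conjugation enzymes in ileum; each point is 1 library, the long bar is the mean of 3 libraries, the whiskers are ±1 SD, and each panel has its own linear axis from 0. Gstm3 and Gstk1 are near the floor of their axes in 3 groups and stand at 72.6 and 30.8 CPM on means in Villin-Cre mice given GW3965.

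In floxed ileum GW3965 was followed by calls in both directions. Of 39 tested members 7 were higher and 8 lower, beside 14.7% and 20.9% of all genes, and the median was 0.01 for members and -0.08 for all genes. Without replicate 3 of the GW3965 group, which stands apart, 8 were higher and 7 lower (17.7% and 21.7% of all genes), and rescaling by the median of gene ratios gave 9 and 6 and raised the share of calls that were higher from 41.23% to 53.45% over all genes. Averaging close libraries left no member called by limma and 6 with an unadjusted p under 0.05, where 0.734% of all genes were called.

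The 3 glucuronosyltransferases called were Ugt2b34, higher at 177, 186 and 171 against 120, 128 and 112 CPM (log2 fold change 0.57 ± 0.06 SE, limma adjusted p = 1.2e-06), Ugt2b5, higher at 3.69 ± 0.46 against 1.27 ± 0.5 CPM (SD, n = 3; 1.28 ± 0.28), and Ugt1a7c, lower at 21.2, 18.5 and 19 against 33.7, 33.6 and 27.1 CPM (-0.67 ± 0.11). Of the sulfotransferases Sult2b1 rose from 126, 129 and 129 to 139, 150 and 151 CPM (0.20 ± 0.05), Sult1b1 by 0.28 with overlapping libraries, and Sult4a1 from 1.03 to 1.91 CPM. Sult1c2, at 0.146 against 1.07 CPM with GW3965, was also called higher, a call set by the filter, and without it 6 members were higher and 8 lower. Sult1d1, which rose in Villin-Cre ileum, was lower in floxed ileum, at 46.4, 45.1 and 43.1 against 53.9, 64.4 and 46.4 CPM (-0.28 ± 0.09). The calls of Sult1d1 and Sult4a1 held in 9 of the 12 fits that each left out 1 library, and rescaling ended that of Sult1d1. Of the glutathione transferases Gsta4 rose from 1.38, 2.71 and 1.89 to 5.3, 5.2 and 6.28 CPM (1.32 ± 0.20, limma adjusted p = 5.7e-05). Gstp1, Gstp2, Gstp3, Gstm1, Gstm4 and Gstm5 fell by 0.49, 0.57, 0.69, 0.23, 0.67 and 0.67 on the log2 scale. The call of Gstm4 held in 10 of those 12 fits, and that of Gstm1 was lost without the library that stands apart (-0.17). Gstm3, Gstk1 and Ugt1a1 did not pass, at log2 fold changes of -0.26, 0.21 and 0.06.

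**Figure D3:**
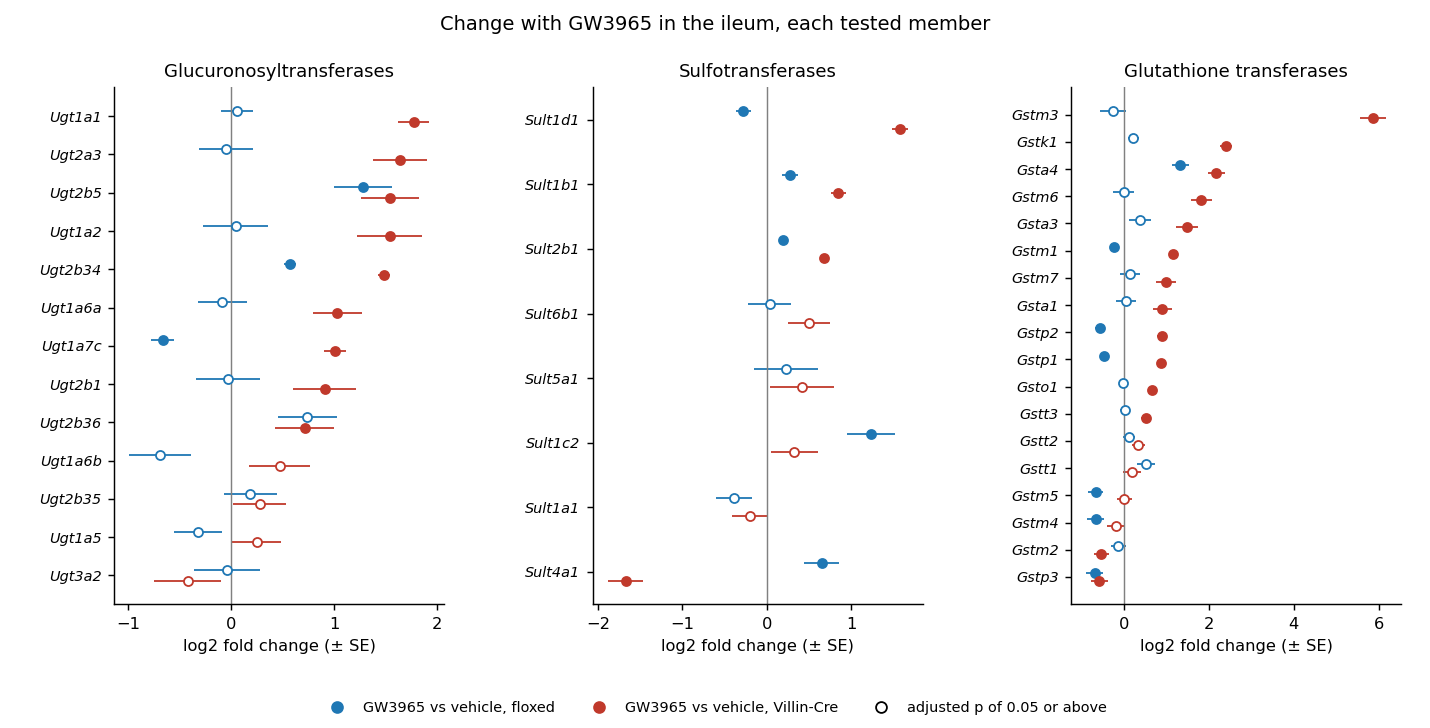
Log2 fold change of GW3965 over vehicle in ileum for each tested member, floxed mice in blue and Villin-Cre mice in red, with whiskers of ±1 SE; filled points have a limma adjusted p under 0.05. Gstm3 lies at -0.26 in floxed and 5.87 in Villin-Cre mice, and Sult1d1 and Ugt1a7c lie on opposite sides of 0 in the 2 genotypes.

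The difference between the 2 genotypes in the response to GW3965 was tested as an interaction in the same model. It was called for 22 of 39 tested members, 21 with a response higher in Villin-Cre mice and 1 lower, beside 14.6% and 18.4% of all genes. The interaction was 6.13 ± 0.44 (log2, SE) for Gstm3, 2.19 ± 0.19 for Gstk1, 1.86 ± 0.13 for Sult1d1, 1.71 ± 0.22 for Ugt1a1, 1.67 ± 0.15 for Ugt1a7c and -2.33 ± 0.30 for Sult4a1, with limma adjusted p-values between 2e-08 and 1.4e-05. It was 0.48 ± 0.07 for Sult2b1 and 0.57 ± 0.13 for Sult1b1, which rose in both genotypes. Averaging close libraries left no interaction called by limma, and 14 members had an unadjusted p under 0.05.

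On vehicle, 15 of 39 tested ileal members were lower in Villin-Cre than in floxed mice and 1 was higher, beside 30.7% and 9.61% of all genes. Over all genes the median log2 difference was -0.18, and -0.35 over members. Scaling libraries to the median gene ratio brought the median of all genes to 0.04, raised the share of all calls that were higher from 23.81% to 57.86%, and left 4 members higher and 10 lower. After averaging of close libraries limma called no member, 7 had an unadjusted p under 0.05, and 0.0322% of all genes were called. Ugt1a7c read 13.8, 13.5 and 11.3 CPM in Villin-Cre and 33.7, 33.6 and 27.1 CPM in floxed mice (-1.26 ± 0.11 SE, limma adjusted p = 1.7e-07). Ugt1a1 read 3.25 ± 0.38 against 6.58 ± 0.77 CPM (SD, n = 3), Ugt1a6a 1.19 ± 0.45 against 2.89 ± 0.5 and Ugt1a6b 1.02 ± 0.58 against 2.6 ± 0.87; the call of Ugt1a6b held in 10 of 12 leave-one-out fits. Sult1d1 was lower at 31.1, 31.9 and 28.5 against 53.9, 64.4 and 46.4 CPM (-0.83 ± 0.09), Sult1a1 was lower at 2.55 against 6.35 CPM, and Sult4a1 was the 1 member called higher, at 2.61 against 1.03 CPM. Gstp3 was lower at 1.28, 1.69 and 1.72 against 4.94, 4.53 and 5.04 CPM (-1.37 ± 0.20), and Gstp1, Gstp2, Gsto1 and Gstm1 were lower too, at -0.58, -0.48, -0.44 and -0.35. Gstm3, Gsta3, Gstm5 and Gstm7 were called at -0.95, -0.80, -0.68 and -0.81; rescaling ended the calls of Gstm3, Gsta3, Gstm5, Gstm1 and Gstp2, and those of Gstm3, Gsta3 and Gstm7 held in 10, 9 and 11 of 12 leave-one-out fits.

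Under GW3965 the members that led the response were higher in Villin-Cre than in floxed ileum. Of 39 members 18 were higher and 5 lower in Villin-Cre than in floxed ileum, beside 13.6% and 38.3% of all genes, and 5 were still called with close libraries averaged (Gstm3, Gstk1, Gstm1, Ugt2b34 and Sult1d1; 5.37% of all genes). Rescaling moved the median over all genes from -0.24 to 0.00 and the share of calls that were higher from 26.12% to 52.08%, with 19 members higher and 3 lower. Gstm3 was higher by 5.18 ± 0.31 (log2, SE), Gstk1 by 2.07 ± 0.13 (30.8 against 7 CPM), Gstm6 by 1.61 ± 0.25, Gsta1 by 1.24 ± 0.23 (9.11 against 3.79 CPM), Sult1d1 by 1.03 ± 0.09, Ugt2b34 by 0.81 ± 0.06 and Ugt1a1 by 0.80 ± 0.15. Ugt2a3, Ugt2b1, Ugt1a7c and Sult1b1 were higher by 1.10, 1.10, 0.42 and 0.60, and Gstm1, Gstp2, Gsta4, Gstp1, Sult2b1, Gstt3 and Gsto1 by 1.02, 0.99, 0.94, 0.76, 0.56, 0.33 and 0.25. Gstp3, Sult4a1 and Sult1a1 were lower, at 0.88, 0.485 and 2.17 against 2.81, 1.91 and 4.84 CPM, as was Gstm2 (-0.44; not called on rescaling or without the floxed library that stands apart). Sult1c2 was called lower too, set by the filter; that call held in 8 of 12 leave-one-out fits and was lost on rescaling. This comparison and the one within Villin-Cre mice share the Villin-Cre GW3965 libraries, and the vehicle comparison shares a group with each treatment comparison.

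Genes of donor supply, conjugate export, conjugate cleavage and regulation, with other conjugating enzymes, were described from a list of 46 symbols, of which 43 entries were tested in ileum. In Villin-Cre ileum with GW3965, 31 rose and 7 fell, beside 21.5% and 31.1% of all genes. Averaging of close libraries left 9 called higher and 2 lower, beside 6.75% of all genes. All 3 genes of UDP-glucuronate supply rose, among them Ugdh, which makes the sugar donor, from 69.4 to 74.3 up to 179 to 187 CPM (log2 fold change 1.34 ± 0.06 SE). Of 4 glutathione genes 3 rose, with the subunits of its rate-limiting ligase Gclc (30.8 to 37.5 up to 106 to 115 CPM; 1.69 ± 0.11) and Gclm (1.61 ± 0.07) in the lead, and the reductase Gsr fell (-0.72 ± 0.06). Of 6 sulfate genes 3 rose, led by the sulfate transporter Slc13a1 (383 to 410 up to 919 to 960 CPM; 1.23 ± 0.09), while the PAPS synthase Papss2 rose by 0.41 and Papss1 did not pass. Among exporters Abcc2, the apical pump for glucuronide and glutathione conjugates, rose from 59.0 to 61.2 up to 807 to 855 CPM (3.78 ± 0.10), and Abcc1, Abcc3 and Abcc4, which sit mainly on the basolateral side, fell. Of 4 tested genes of conjugate cleavage 3 rose and 1 fell. All 8 tested genes of other conjugating enzymes rose, led by the cysteine conjugate acetyltransferase Nat8 (2.32 ± 0.12). Of 13 regulators 9 rose, with Ppara (1.36 ± 0.11), the NRF2 gene Nfe2l2 (0.85 ± 0.07), the intestinal factor Cdx2 (0.73 ± 0.05) and the xenobiotic receptor gene Nr1i2 (PXR; 0.49 ± 0.05) at the smallest p-values. In floxed ileum 21 of the 43 rose and 7 fell, beside 14.7% and 20.9% of all genes, and averaging left 1 call (Gsr). There Abcc2 rose by 1.72 ± 0.10, Gclm by 0.72 ± 0.07 and Ugdh by 0.37 ± 0.06, while Nfe2l2 stood at 0.02 ± 0.07, and Gsr fell (-1.44 ± 0.06).

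Cell type markers moved with these groups. All 8 markers of absorptive enterocytes were called higher with GW3965 in Villin-Cre ileum, their summed level going from 12570 to 12770 CPM on vehicle up to 26100 to 26650 CPM; in floxed ileum 7 of 8 were higher, from 9197 to 9414 up to 16000 to 16990 CPM. All 6 smooth muscle markers were lower in both genotypes, from 6279 to 6598 down to 798.8 to 808.3 CPM in Villin-Cre and from 5945 to 6035 down to 2276 to 3426 CPM in floxed ileum. The sum of 5 markers of crypt and dividing cells was 353 to 398.1, 139.8 to 168.9, 101.0 to 109.9 and 30.27 to 32.74 CPM in floxed vehicle, floxed GW3965, Villin-Cre vehicle and Villin-Cre GW3965 ileum. The 8 epithelial markers summed to 9068 to 9498 CPM on vehicle and 10910 to 11060 CPM with GW3965 in Villin-Cre ileum, where 5 of them were called higher and 3 (Krt8, Krt18 and Krt19) lower. No marker of these lists was without reads. The share of reads on the non-coding gene Gm26917 was 10.4% to 11.64%, 6.57% to 7.92%, 11.52% to 12.18% and 3.923% to 4.204% in the same order of groups. Their part in the ileal results was not tested, and in whole tissue fewer cells of a type and less RNA per cell cannot be told apart.

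In liver, members differed between genotypes in both directions, with Cre driven by an intestinal promoter. On vehicle, Gsta1, an alpha-class transferase, read 258, 256 and 262 CPM in Villin-Cre and 25.9, 29.8 and 27.7 CPM in floxed mice, 9.3 times higher on means (log2 difference 3.20 ± 0.39 SE, limma adjusted p = 7.4e-06). Ugt3a1, of a family that transfers sugars other than glucuronate, went the other way, at 4.81, 4.56 and 5.07 against 28.6, 29.3 and 27.2 CPM (-2.44 ± 0.09, limma adjusted p = 9.2e-11). Of 48 tested members 10 were higher and 22 lower in Villin-Cre mice, beside 45.1% and 11.7% of all 17520 tested genes, and the median was -0.27 over members and 0.26 over all genes. Rescaling brought the median of all genes to 0.01 and the share of all calls that were higher from 79.33% to 49.32%, with 9 members higher and 28 lower. After averaging of close libraries only Ugt3a1 and Ugt2a3 were called, beside 1.18% of all genes.

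Of 19 tested hepatic glucuronosyltransferases 12 were lower and 1, Ugt2b35, was higher (0.22; -0.07 and not called on rescaling). Ugt2a3 read 20.9, 17.5 and 20.9 CPM in Villin-Cre and 57.2, 61 and 63.9 CPM in floxed mice (-1.60 ± 0.09 SE), Ugt3a2 64.4 ± 2.1 against 155 ± 6.3 CPM (SD, n = 3; -1.26), Ugt1a5 33.4 ± 2 against 76.1 ± 3.7 (-1.18) and Ugt1a9 7.01 ± 0.74 against 15.4 ± 1.1 (-1.08). The abundant Ugt2b1 and Ugt2b36 were lower at -0.96 and -0.77, and Ugt2b5 at -0.27; Ugt2b34 did not pass (-0.07). Of 10 tested sulfotransferases 5 were lower and 2 higher, and both higher calls were set by the filter; without those 2 members 8 of 46 were higher and 22 lower over the 3 classes. Sult2a8, which sulfates bile acids, read 9.79, 9.82 and 11.8 against 47.5, 57 and 55.4 CPM (-2.30 ± 0.24), Sult1b1 3.55 against 8.7 CPM (-1.18), and Sult1c2 0.596 against 1.75 CPM (-1.04). Sult5a1 was lower at 0.58 against 2.7 CPM, a call held in 8 of 12 leave-one-out fits, and the abundant Sult1a1 was lower by a small step (-0.22). Sult1e1, which inactivates oestrogens by sulfation, had 117 reads in 87.98 M in Villin-Cre vehicle liver and 0 reads in 87.38 M in floxed vehicle liver, at least 38.7-fold higher against a floor of 3 counts over the group; such floors cover counting error only. Sult2a2 read 0.788 against 0.162 CPM.

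Of 19 tested hepatic glutathione transferases 7 were higher and 5 lower. Beside Gsta1, Gstm3 read 994, 984 and 997 against 411, 418 and 408 CPM (log2 difference 1.27 ± 0.34 SE, limma adjusted p = 0.0057), and Gsta2 28.6 ± 2.7 against 12.7 ± 0.54 CPM (SD, n = 3; 1.13). Gstp1 read 622, 599 and 605 against 329, 325 and 328 CPM (0.89 ± 0.17), with Gstp2, Gsto1 and Gsta4 higher by 0.88, 0.77 and 0.73. Gstt1, a theta-class enzyme that acts on small halogenated compounds, read 71.3, 69.5 and 65 against 169, 158 and 161 CPM (-1.24 ± 0.11). Gstm7 (22.4 against 47.6 CPM), Gstk1 (20.9 against 42.7), Gsta3 (409 against 733) and Gstt3 were lower, at -1.07, -1.02, -0.84 and -0.89. Gstm1, the most abundant member, did not pass, at 2785, 2756 and 2771 against 2127, 2119 and 2134 CPM (0.38 ± 0.25); the groups did not overlap, and the spread that the model pools over groups includes the floxed GW3965 library that stands apart, which read 855 CPM.

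**Figure D4:**
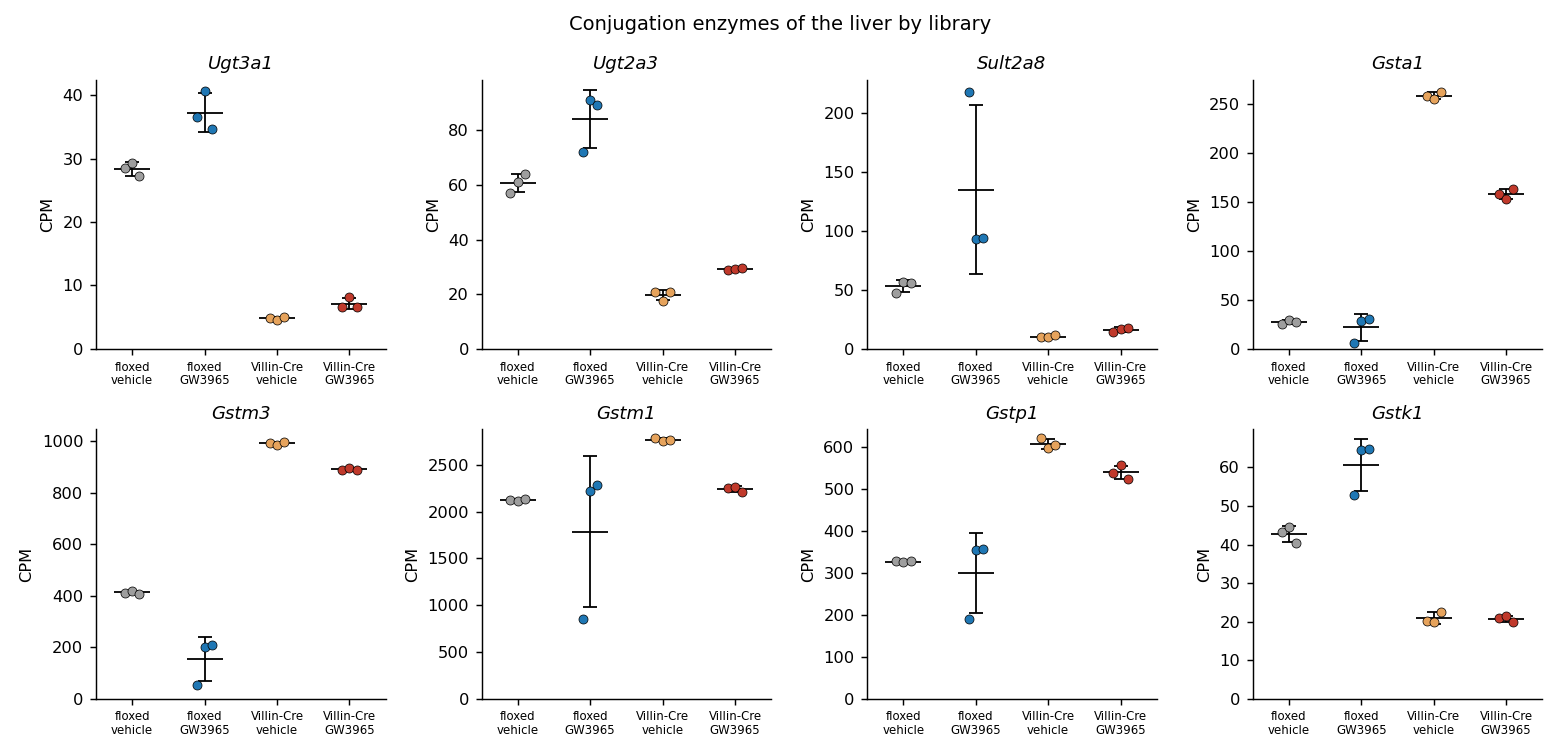
CPM of 8 conjugation enzymes in liver; each point is 1 library, the long bar is the mean of 3 libraries, the whiskers are ±1 SD, and each panel has its own linear axis from 0. Gsta1, Gstm3 and Gstp1 are higher and Ugt3a1, Ugt2a3, Sult2a8 and Gstk1 lower in both Villin-Cre groups; the 3 floxed GW3965 libraries are spread out for Sult2a8, Gstm3 and Gstm1 because replicate 1 lies away from the other 2.

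Under GW3965 the hepatic members again differed between genotypes: 12 were higher and 24 lower in Villin-Cre mice, beside 40.9% and 15% of all genes. Sult1e1 was among those called higher. It passed the filter through Villin-Cre vehicle libraries alone, and without it and Sult2a2, 11 were higher and 24 lower. Without replicate 1 of the floxed group the counts were 11 and 25, where 7371 and 3010 of all 17520 genes were called. Rescaling gave 8 and 27 and moved the share of all calls that were higher from 73.1% to 51.28%. With close libraries averaged 10 members were called: Gsta1, Gstm2, Gstm3 and Gstm6 higher, and Ugt3a1, Ugt3a2, Ugt2a3, Ugt1a6b, Gstk1 and Sult2a8 lower, beside 9.53% of all genes. Gsta1 read 159, 153 and 164 against 6.39, 28.6 and 30.8 CPM (log2 difference 3.11 ± 0.39 SE; 2.40 without that library), Gstm3 887, 896 and 889 against 54.4, 200 and 207 CPM (2.76 ± 0.34; 2.13 without it), and Gstm2 152, 161 and 154 against 32.8, 67.6 and 66.3 CPM (1.55 ± 0.19; 1.21 without it). Ugt3a1 was lower at 7.1 against 37.3 CPM (-2.32 ± 0.09), Ugt2a3 at 29.4 against 84.1 (-1.50), Gstk1 at 20.7 against 60.6 (-1.52), Gstt3 at 7.07 against 19.6 (-1.33), and Ugt1a6a at 5.95 against 16.5 CPM (-1.38). Sult2a8 read 14.2, 17.1 and 17.7 against 217, 93.1 and 93.7 CPM (-2.89 ± 0.24; -2.48 without it), and Sult1b1, Sult1c2 and Sult2b1 were lower at -1.23, -1.20 and -0.83. These libraries are not those of the vehicle comparison, though both comparisons share 1 model and its pooled spread. Among the members named here, Gsta1, Gstm3, Ugt3a1, Ugt3a2, Ugt2a3, Gstk1, Gstt3, Sult2a8, Sult1b1 and Sult1c2 were called in the same direction on vehicle. Gstm2, Gstm6 and Sult2b1, also named here, were not called on vehicle. Of all 17520 tested genes 9951 were called on vehicle and 9798 under GW3965, and how many shared a direction was not counted.

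**Figure D5:**
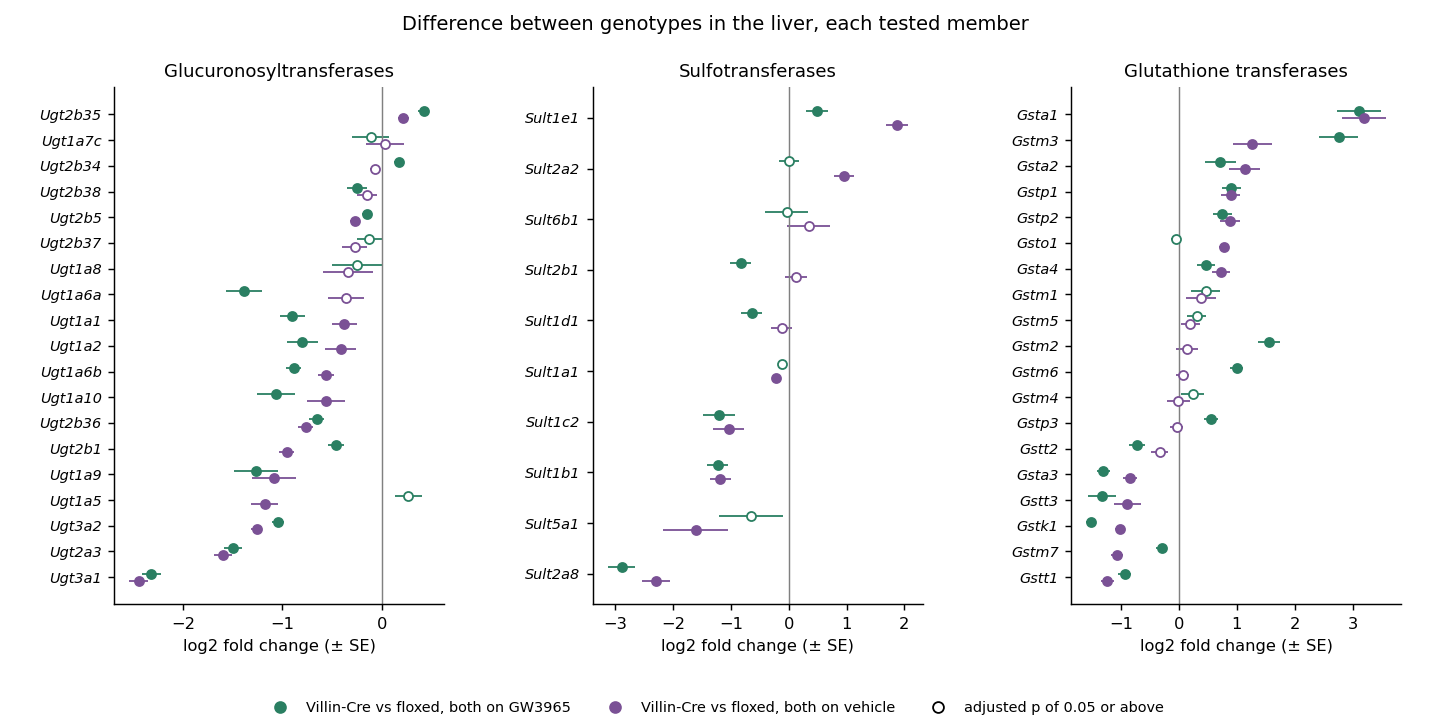
Log2 difference between Villin-Cre and floxed liver for each tested member, mice on vehicle in purple and mice on GW3965 in green, with whiskers of ±1 SE; filled points have a limma adjusted p under 0.05. Most glucuronosyltransferases lie left of 0, and Gsta1 lies at 3.20 on vehicle and 3.11 on GW3965.

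The response of the floxed liver to GW3965 depends on replicate 1, which differs from the other 2 libraries in many members. It read 855 CPM for Gstm1, 54.4 for Gstm3, 6.39 for Gsta1, 217 for Sult2a8 and 10.1 for Sult5a1, where replicates 2 and 3 read 2221 and 2283, 200 and 207, 28.6 and 30.8, 93.1 and 93.7, and 0.994 and 1.12 CPM. The 6 listed genes with higher expression in male mouse liver summed to 1803 CPM in it and to 431 to 431.2 CPM in the other 2, and 6 with higher expression in females to 19.35 against 456.4 to 474.7 CPM. The same sums were 455.1 to 478.9 and 209.3 to 213.8 CPM in floxed vehicle liver. They differed by genotype too, at 223.1 to 230 and 212.1 to 215.1 CPM in Villin-Cre vehicle liver. In Villin-Cre GW3965 liver they were 303.1 to 304.4 and 107.5 to 116.5 CPM. Of 5 tested genes of each list, 3 male-biased and 1 female-biased were called lower in Villin-Cre vehicle liver, and none higher. The 5 sex-linked transcripts (Xist, Ddx3y, Uty, Kdm5d and Eif2s3y) summed to 137.7 CPM in replicate 1 and to 156.4 to 158.3 CPM in replicates 2 and 3. In floxed vehicle liver they summed to 143.1 to 148 CPM. That sum mixes the X-linked Xist with Y-linked genes, and the sex of the mice was not tested. With all 3 libraries 9 members were higher and 7 lower, beside 10.4% and 19.7% of all genes; without replicate 1, 22 were higher and 7 lower, beside 15.6% and 23.3%. Rescaling gave 10 and 7 and moved the share of all calls that were higher from 34.45% to 44.77%. With close libraries averaged limma called no member, 7 had an unadjusted p under 0.05, and 0.0342% of all genes were called.

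Among the members called with and without that library, mu-class transferases fell. Gstm3 fell from 411, 418 and 408 CPM to the values above (log2 fold change -1.65 ± 0.34 SE; -1.02 without replicate 1), Gstm2 from 121, 116 and 117 to 32.8, 67.6 and 66.3 CPM (-1.15 ± 0.19; -0.81 without it), and Gstm6 from 84.6 to 56.1 CPM (-0.61; -0.42 without it). Gstk1 rose from 43.2, 44.4 and 40.4 to 52.7, 64.5 and 64.7 CPM (0.50 ± 0.08), Ugt2a3 from 60.7 to 84.1 (0.46), Ugt3a1 from 28.4 to 37.3 (0.39), Ugt1a6a from 10.3 to 16.5 (0.63; called in 10 of 12 leave-one-out fits) and Sult2b1 from 1.83 to 3.66 CPM (0.84). Sult2a8 rose from 47.5, 57 and 55.4 CPM (1.21 ± 0.24; 0.81 without replicate 1). Ugt1a5 fell from 76.1 to 43.7 CPM (-0.83) and Ugt2b35 from 84.4 to 60.2 CPM (-0.49). Gstp3 was called lower (-0.38) and lost its call without replicate 1 (-0.21). Gstm1 and Gstp1 did not pass with 3 libraries (-0.38 and -0.18) and were called higher without replicate 1, at 0.08 and 0.12.

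In Villin-Cre liver GW3965 was followed by few calls: 7 were higher and 4 lower, beside 2.85% and 9.03% of all genes. Without the floxed GW3965 library that stands apart, which is in neither group but adds to the pooled spread, 14 were higher and 17 lower. Of all 17520 tested genes 1161 were then higher and 3500 lower, against 499 and 1582 with all libraries. Rescaling gave 8 and 3 and moved the share of all calls that were higher from 23.98% to 59.78%. Averaged close libraries gave 0 calls by limma over all genes (0%) and none among members, with 2 members at an unadjusted p under 0.05. Ugt2b1 rose from 48.4, 48.9 and 50.2 to 71.2, 69.9 and 74.3 CPM (log2 fold change 0.54 ± 0.08 SE, limma adjusted p = 0.00065), and Ugt2a3, Ugt3a1, Ugt1a5 and Gstm7 rose by 0.56, 0.51, 0.62 and 0.51; the call of Ugt1a5 held in 11 of 12 leave-one-out fits. Gsto1 fell from 74.8, 70.4 and 74.8 to 52.3, 49.1 and 52 CPM (-0.52 ± 0.07), Ugt2b35 from 98.1 to 80.6 CPM (-0.28, not called after rescaling) and Sult1e1 from 1.35, 1.19 and 1.46 to 0.295, 0.495 and 0.216 CPM (-1.15 ± 0.19). The calls of Sult1e1 and Sult2a2 were set by the filter, and without them 7 were higher and 2 lower. Sult2a2 had 69 reads on vehicle and 0 with GW3965, at least 22.8-fold lower against a floor of 3 counts over the group. Gsta1, at 258, 256 and 262 against 159, 153 and 164 CPM, was not called with all libraries in the model (-0.71 ± 0.39) and was called without the library that stands apart.

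The interaction in liver was called for 14 of 48 members, 8 higher and 6 lower (4 without Sult1e1 and Sult2a2, whose calls were set by the filter), beside 10.2% and 9.7% of all genes. Without the library that stands apart 12 were higher and 19 lower, where 2652 and 3066 of all 17520 genes were called. Rescaling gave 10 and 6, with the share of all calls that were higher going from 51.16% to 61.24%. Ugt1a5 had the largest value among glucuronosyltransferases (1.44 ± 0.19 SE), having fallen with GW3965 in floxed liver and risen in Villin-Cre liver. Gsto1 (-0.83 ± 0.11) rose in floxed and fell in Villin-Cre liver, and Gstm7 (0.77 ± 0.14) rose in Villin-Cre liver and did not pass in floxed liver. Gstm2 (1.41 ± 0.27), Gstm3 (1.49 ± 0.48) and Gstm6 (0.93 ± 0.17) fell in floxed and did not pass in Villin-Cre liver; without replicate 1 their interactions were 1.07, 0.86 and 0.74, and the call of Gstm3 held in 3 of 12 leave-one-out fits. No interaction was called by limma with close libraries averaged, and 6 members had an unadjusted p under 0.05.

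Of the list of supply, export, cleavage and regulator genes and other conjugating enzymes, 41 entries were tested in liver. In Villin-Cre vehicle liver 14 were higher and 13 lower than in floxed vehicle liver, beside 45.1% and 11.7% of all genes. Averaging of close libraries left 0 of them called by limma, and 11 had an unadjusted p under 0.05. The glutathione genes Gclc (1131 to 1149 against 558 to 572 CPM; 1.02 ± 0.05) and Gsr (1.05 ± 0.07) were higher, and the sulfate genes Papss2 (-0.81 ± 0.13) and Slc26a1 (-1.19 ± 0.10) lower. The basolateral exporters Abcc4 (188 to 197 against 25.1 to 27.6 CPM; 2.86 ± 0.26), Abcc1 (1.24 ± 0.12) and Abcc3 (0.46 ± 0.06) were higher, as was the apical pump Abcc2 (1386 to 1417 against 1207 to 1229 CPM; 0.21 ± 0.08), and Abcg2 was lower (-0.49 ± 0.08). All 3 tested genes of conjugate cleavage were higher. Of 9 other conjugating enzymes 5 were lower, among them the microsomal transferase Mgst1 (-0.66 ± 0.04) and Gstz1 (-0.92 ± 0.05). Of 12 regulators 5 were lower, among them Nr1h4 (FXR; -0.79 ± 0.06) and Hnf4a (-0.33 ± 0.05), and 2 were higher. With GW3965, 4 rose and 12 fell in floxed liver (10.4% and 19.7% of all genes), and 1 rose and 7 fell in Villin-Cre liver (2.85% and 9.03%); averaging left 0 calls by limma in either, with 3 and 1 at an unadjusted p under 0.05.

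Marker sums of the liver moved with genotype as well. The 6 hepatocyte markers summed to 72620 to 74890 CPM in floxed vehicle, 50310 to 60690 in floxed GW3965, 48700 to 49190 in Villin-Cre vehicle and 52810 to 54680 CPM in Villin-Cre GW3965 liver. In the same order of groups the 5 bile duct markers summed to 120.2 to 121.3, 48.45 to 71.11, 275.8 to 281.8 and 138.5 to 146.9 CPM, with all 5 called higher in Villin-Cre vehicle liver. The 7 tested genes of pericentral hepatocytes, the zone where many conjugation enzymes are high, summed to 3905 to 3941, 6477 to 6704, 2117 to 2160 and 1311 to 1323 CPM, and 6 of 7 were called lower in Villin-Cre vehicle liver. The 6 genes of periportal hepatocytes summed to 3958 to 3990, 4821 to 5915, 3466 to 3481 and 3777 to 3900 CPM. Of these, 4 were called lower and 1 higher in Villin-Cre vehicle liver. The median log2 difference there was -0.95 for periportal and -0.66 for pericentral genes. All 8 general epithelial markers were also called higher there, with sums of 771.7 to 784.2 CPM in floxed and 3048 to 3078 CPM in Villin-Cre vehicle liver. Krt19 and Epcam are in both this list and the bile duct list. Of other markers, all 6 of fibroblasts, 4 of 6 of leukocytes and 4 of 5 of smooth muscle were called higher there. All 3 tested markers of crypt and dividing cells were lower. Over all genes 45.1% were called higher. No listed marker of these lists was without reads. Their part in the hepatic differences was not tested.

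Members with reads below the filter came from all 3 classes. In ileum 8 Sult entries had no read in any library (Sult2a1 to Sult2a6, Sult3a1 and Sult3a2), and 5 more had reads without passing, the largest being Sult6b2 with 21 reads in all 12 libraries. In liver Sult2a4 had no read, and 10 sulfotransferases stayed below the filter, from Sult1c1 and Sult6b2 with 1 read each to Sult2a1 with 72 reads. Sult2a1 and Sult2a2, which sulfate hydroxysteroids and bile acids, had no read in the floxed GW3965 liver libraries. Ugt2a2 was the only glucuronosyltransferase below the filter in liver, and 94.5% of its exonic bases are shared with Ugt2a1 and Gm43638. In ileum 7 glucuronosyltransferases stayed below it, among them Ugt3a1 with 6 reads, a gene that read 27.2 to 29.3 CPM in floxed vehicle liver.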

How the data were processed

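The authors deposited 1 table per tissue of log2 CPM values for 40757 gene entries in 12 libraries. Per the submitters' processing notes the tools were bcl2fastq, STAR 2.5.1a, Subread and featureCounts 1.4.6-p5 with GRCm38; strand setting, annotation release and log formula: not given in the sources used here. Per the labels' protocols, RNA was depleted of ribosomal RNA, primed with random hexamers and sequenced as paired reads of 150 bases. Entries that repeated another were dropped (276 per table). The values gave whole read numbers for 100% of entries within 0.05 reads, and CPM was computed from those.

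CPM plus 0.5 was log2 transformed and fitted with limma 3.58.1 (R 4.3.3), all 4 groups of a tissue in 1 model, with a prior variance that follows the mean level and Benjamini-Hochberg adjustment over all genes with at least 0.5 CPM in 3 libraries. The fit was tested on simulated data first. Members, lists and tests were chosen with earlier results of these data known. Named in each comparison and class are up to 5 called members of largest absolute log2 fold change that had no overlap and at least 1 CPM (interaction: no overlap rule), plus the 4 highest members per kb of each class and, for the supply and regulator list, up to 4 per role with the smallest p. Other members are named to account for the remaining calls or for low reads, after their values were seen. Promoter sequences are RefSeq's on GRCm38.p6.

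Alternatives were other scaling (median of gene ratios), filters (none, or 2 CPM), a pseudocount of 2, voom on the recovered reads, only the groups compared, close libraries averaged, each library left out, and the replicate number as a block. Deviations of same-numbered libraries of different groups correlated at -0.0395 to 0.0545 in ileum and -0.0256 to 0.0314 in liver.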

Additional observations from a re-analysis of the deposited data

Results flagged for a closer look

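The effect of GW3965 on the following members differed between Villin-Cre and floxed mice by the interaction test of limma (adjusted p under 0.05), given as the log2 difference of the effects, Villin-Cre minus floxed. With close libraries averaged no interaction of any member was called, and the unadjusted p of 14 ileal and 6 hepatic members was under 0.05.

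In ileum the glucuronosyltransferases gave 1.71 for Ugt1a1, 1.49 for Ugt1a2, 1.16 for Ugt1a6b, 1.67 for Ugt1a7c and 1.69 for Ugt2a3. The call of Ugt1a6b held in 4 of the 12 fits that each left out 1 library. The glutathione transferases gave 6.13 for Gstm3, 2.19 for Gstk1, 1.83 for Gstm6, 1.46 for Gstp2 and 1.37 for Gstm1. The sulfotransferases gave 1.86 for Sult1d1, 0.57 for Sult1b1 and 0.48 for Sult2b1, and -2.33 for Sult4a1, the 1 ileal member with a lower response in Villin-Cre mice.

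In liver the glucuronosyltransferases gave 1.44 for Ugt1a5, 0.50 for Ugt2b1, 0.24 for Ugt2b34 and -1.02 for Ugt1a6a. The glutathione transferases gave 1.49 for Gstm3, 1.41 for Gstm2, 0.93 for Gstm6, 0.77 for Gstm7 and -0.83 for Gsto1. The sulfotransferases gave -1.38 for Sult1e1, a call set by the filter, and -0.96 for Sult2b1. The calls of Ugt2b34, Gstm3 and Sult2b1 held in 4, 3 and 7 of 12 leave-one-out fits.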

How the results depend on the processing

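With close libraries averaged, the members called by limma were 0 (GW3965, floxed), 7 (GW3965, Villin-Cre), 0 (genotype, vehicle), 5 (genotype, GW3965) and 0 (interaction) in ileum, and 0, 0, 2, 10 and 0 in liver in the same order, against 15, 27, 16, 23 and 22 and 16, 11, 32, 36 and 14 with 12 libraries. Fewer units, 5 a tissue, entered that fit, with 1 unit in each group but floxed GW3965. Leaving out 1 library at a time gave 12 to 16, 25 to 28, 14 to 19, 20 to 24 and 16 to 23 members in ileum, and 13 to 29, 9 to 31, 28 to 36, 32 to 37 and 10 to 31 in liver. Without replicate 1 of the floxed GW3965 liver 29, 31 and 31 were called for GW3965 in floxed, GW3965 in Villin-Cre and the interaction. Over all 17520 genes 6823, 4661 and 5718 were then called, against 5265, 2081 and 3479 with all libraries. With only the groups compared in the model, 31 members were called for GW3965 in Villin-Cre liver.

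Of 127 calls of single members chosen by the naming rule, none changed sign; outside that rule hepatic Ugt2b35 (genotype, vehicle) went from 0.22 to -0.07 on rescaling. Calls were lost for 108 with close libraries averaged, 6 with other scaling, 7 with no filter, 4 with voom and 1 with a pseudocount of 2. With only the groups compared, where interactions could not be fitted, 3 lost and 99 kept their call, and all 117 that passed a filter of 2 CPM kept theirs; the causes were not tested. Over the leave-one-out fits 16 results lost a call at least once. With the replicate number as a block, which the labels do not tie to shared animals, all 127 kept their call. Low reads limit members under about 1 CPM.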
